A study of Mus musculus with 6 samples.

Results

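The 34 genes described here are markers and working parts of T cells and natural killer (NK) cells, the lymphocytes that carry an antigen receptor or kill target cells directly. They were chosen by gene name, and all 34 had a row among the 26123 genes of the deposited table. Liver RNA of 6 ICR mice, an outbred stock, was sequenced and counted per gene, with 3 animals labelled control and 3 labelled crizotinib, a drug that blocks several receptor tyrosine kinases, among them ALK and MET. The series states a dose of 300 mg/kg, 7 days of adaptation and collection 1 week after dosing, presents the experiment as a liver injury model and does not say plainly which group was dosed, so groups follow the treatment label. The labels give whole liver tissue and no age, sex or genotype.

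T cells recognise antigen through a receptor whose signal is passed on by the CD3 and zeta chains, the kinases Lck and Zap70 and the adaptor Lat. NK cells carry no such receptor and read stress ligands and class I molecules through receptors of the Klr and Ncr families. Both kinds kill by releasing perforin and granzymes. The mouse liver is known for a resident population of NK, NKT and CD8 T cells that patrol the sinusoids, many of which carry Cxcr6. In bulk tissue, fewer cells of a type and less RNA per cell cannot be told apart.

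The promoters of 5 members are shown first because these genes, of NK receptors, killing and the T-cell receptor, stood lower in every crizotinib library than in any control. Of the 34 members 25 had an entry in the RefSeq promoter table (build GRCm38.p6, 250 bases before to 50 after the start). Each is printed 5′ to 3′ on the gene's own strand. Capitals mark TGTGGT, or ACCACA on the other strand, a core recognised by RUNX factors, which act in T and NK cell development.
Klrk1 (chr6:129623815-129624114, minus strand): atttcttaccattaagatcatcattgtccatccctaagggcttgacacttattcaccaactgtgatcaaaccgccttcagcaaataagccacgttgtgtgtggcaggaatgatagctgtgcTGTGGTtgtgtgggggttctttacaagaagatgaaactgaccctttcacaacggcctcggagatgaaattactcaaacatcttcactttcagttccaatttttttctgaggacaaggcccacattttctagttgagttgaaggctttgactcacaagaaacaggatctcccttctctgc
Nkg7 (chr7:43436888-43437187, plus strand): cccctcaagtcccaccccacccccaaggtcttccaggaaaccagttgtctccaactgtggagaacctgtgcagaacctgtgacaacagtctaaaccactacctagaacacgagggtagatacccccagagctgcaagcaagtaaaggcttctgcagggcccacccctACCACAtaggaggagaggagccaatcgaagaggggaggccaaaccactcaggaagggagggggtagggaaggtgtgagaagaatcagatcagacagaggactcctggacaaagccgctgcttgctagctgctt
Gzma (chr13:113100932-113101231, minus strand): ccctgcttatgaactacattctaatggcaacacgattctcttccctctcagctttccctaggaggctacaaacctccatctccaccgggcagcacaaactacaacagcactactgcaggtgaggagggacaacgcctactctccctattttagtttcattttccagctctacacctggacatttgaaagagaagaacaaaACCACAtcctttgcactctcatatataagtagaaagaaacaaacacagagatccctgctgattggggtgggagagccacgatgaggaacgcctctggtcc
Cd3g (chr9:44980382-44980681, minus strand): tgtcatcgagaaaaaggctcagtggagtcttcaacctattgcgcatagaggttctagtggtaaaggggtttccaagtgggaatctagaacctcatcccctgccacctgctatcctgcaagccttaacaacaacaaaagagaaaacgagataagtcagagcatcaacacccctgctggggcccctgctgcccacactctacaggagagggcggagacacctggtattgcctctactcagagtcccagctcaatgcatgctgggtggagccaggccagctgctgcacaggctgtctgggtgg
Cd3d (chr9:44981536-44981835, plus strand): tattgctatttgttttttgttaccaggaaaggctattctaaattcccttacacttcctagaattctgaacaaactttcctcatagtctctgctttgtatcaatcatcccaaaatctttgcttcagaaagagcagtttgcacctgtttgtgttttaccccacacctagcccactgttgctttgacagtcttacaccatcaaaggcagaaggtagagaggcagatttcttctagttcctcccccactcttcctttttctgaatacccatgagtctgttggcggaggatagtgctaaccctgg
Klrk1, Nkg7 and Gzma each held the 6 letters 1 time, and Cd3g and Cd3d did not hold them in this window. Cd3g and Cd3d lie back to back, with 1355 bases between the end of Cd3g and the start of Cd3d. On either strand, 13 of the 25 member promoters held TGTGGT, against 16.9% of 27025 promoters, taking the first entry of each gene. The 13 belonged to Cxcr3, Cxcr6, Gzma, Gzmb, Il2rg, Il7r, Klrb1c, Klrk1, Lat, Lck, Ncr1, Nkg7 and Prf1, which include members that were and were not lower. The ETS core AGGAAG was in 16 of the 25 and in 35.1% of all, and the T-box core GGTGTGA was in 1 of the 25, that of Nkg7, and in 3.96% of all. Matches of different motifs may overlap, a match is a description of letters, and the shares were not tested.

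Transcripts of these genes were scarce in liver. Libraries held between 51123361 and 67947970 counts. Mean control levels ranged from 0.0151 FPKM (the deposited level per gene length and depth) for Txk to 2.42 FPKM for Ccl5, with a median over members of 0.214 FPKM, next to 1.45 FPKM for all tested genes. Single members other than Cd28 had at most 374 counts in a library. Of the 34 members 33, 33 and 34 had a count in control replicates 1, 2 and 3, and 27, 21 and 27 had one in crizotinib replicates 1, 2 and 3. Low counts also came in steps: in each library 885 to 999 genes had a count of 4, but 427 to 452 had a count of 3 and 220 to 316 a count of 5. Floors of 3 counts per library, used below, cover counting error only and take the reads as independent molecules.

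Most T and NK cell genes were lower in all 3 crizotinib livers, no single one passed the test over all genes, and 1, Cd28, stood far above the controls in a pair of crizotinib livers. In CPM (counts relative to library size, with trimmed mean of M values factors, TMM), 23 of the 34 members lay lower in every crizotinib library than in any control and 0 lay higher. Of all 26123 genes, 7.66% lay lower in this sense; of those tested, 10.3% lay lower and 10.7% higher. A low-count filter left 27 members, of which 23 were fitted below 0 and 4 above 0. Their median log2 fold change was -2.03, while 8246 of the 16492 genes tested were fitted below 0. The filter keeps genes through the group in which they are high, so the 27 are not a fair sample of the 34. No member passed at an adjusted p under 0.05, while 0.34% of all tested genes did, 0.249% lower and 0.091% higher (56 genes; quasi-likelihood test of edgeR, adjusted over all genes by Benjamini and Hochberg's method). At an unadjusted p under 0.05 there were 17 members, 16 lower and 1 higher, next to 15.3% of all genes, 7.25% lower and 8.06% higher. The lowest adjusted p was 0.0544, that of Klrk1.

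The call of 0 members rested on the tool and the libraries. DESeq2 called 11 members (Ccl5, Cd28, Cd3g, Cd4, Cd8b1, Cxcr6, Gzma, Il2rb, Klrk1, Nkg7 and Zap70), all lower but Cd28, where it called 6.7% of all genes, 3.6% lower. Voom in limma, weighting libraries by quality, called 18, where it called 19.5% of all genes. Without crizotinib replicate 3 edgeR called 7 members (Ccl5, Cd28, Cd8b1, Il2rb, Klrd1, Klrk1 and Zap70), next to 8.83% of all genes, and without any other single library it called 0 members and at most 3 genes (0.0176%). Without control replicate 1 and crizotinib replicate 3 together it called 5 members (Cd28, Gzma, Il2rb, Klrk1 and Zap70), next to 10.3% of all genes. With DESeq2 size factors (0.37% of genes called), no low-count filter (0.214%), mitochondrial genes removed (0.367%) or limma on log2(FPKM + 1) (0.291%) it was 0 members. Mitochondrially encoded genes took 44.5% of the counts in control replicate 1 and 5.53% to 17.6% in the other 5 libraries. Under the library total alone, without TMM factors, 19 members rather than 23 lay lower in every crizotinib library, with Cd3e, Lck, Ncr1 and Gzmb overlapping; 5.9% of tested genes lay lower under that scaling and 10.3% under TMM.

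**Figure D1:**
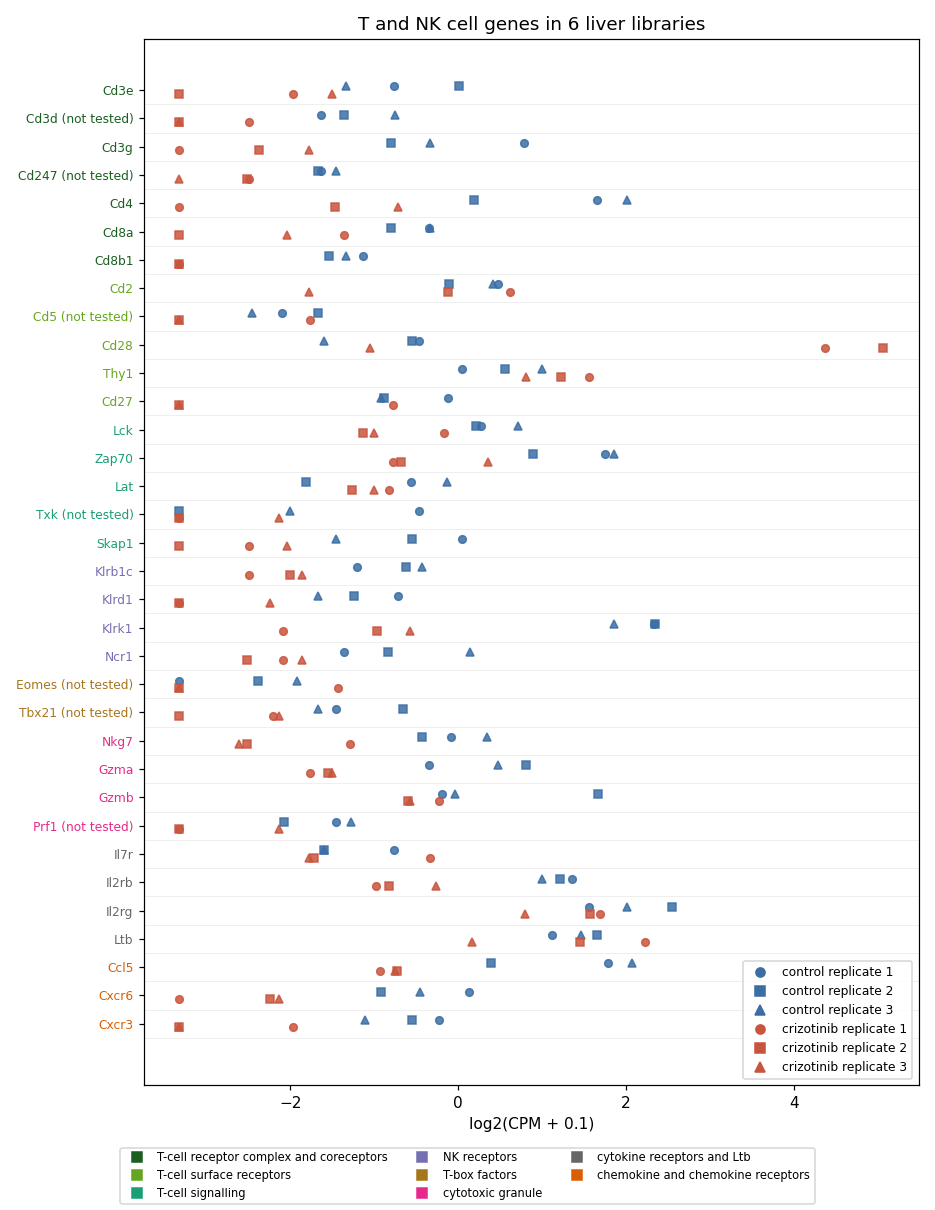
Level of each of the 34 genes, as log2(CPM + 0.1), in 3 control (blue) and 3 crizotinib (red) libraries, with 1 symbol per replicate and gene names coloured by role; points at the left edge are libraries with no count, and coinciding points hide each other. Red points lie left of blue ones for 23 genes, and Cd28 lies far to the right in crizotinib replicates 1 and 2.

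The T-cell receptor complex and its coreceptors were lower throughout. All 7 members (Cd3e, Cd3d, Cd3g, Cd247, Cd4, Cd8a and Cd8b1) were below every control in every crizotinib library, Cd3e not without TMM factors, and 5 of them were tested. Summed over the CD3 chains and the zeta chain (Cd3e, Cd3d, Cd3g and Cd247), control libraries held 115, 123 and 106 counts and crizotinib libraries 16, 9 and 28. In CPM these sums were 2.55, 1.88 and 1.75 against 0.309, 0.168 and 0.444, 6.71-fold lower in the ratio of group means. Cd3e had 22, 59 and 18 counts in control replicates 1, 2 and 3 and 8, 0 and 16 counts in crizotinib replicates 1, 2 and 3, so that control replicate 3 and crizotinib replicate 3 were close. Cd3g (ENSMUSG00000002033, GRCm38 chromosome 9, 44969572 to 44980431, minus strand) had 1.62, 0.474 and 0.692 CPM in controls and 0, 0.0931 and 0.190 CPM in crizotinib livers. Its log2 fold change was -3.23 ± 1.06 (SE; edgeR adjusted p = 0.215). Leaving out control replicate 1 gave -2.58 and leaving out crizotinib replicate 3 gave -4.25. For Cd3e, at -2.02 ± 1.07 (SE) with all libraries, it was -2.86 without crizotinib replicate 3 and -1.45 without crizotinib replicate 2. Cd3d and Cd247, which were not tested, had totals of 59 and 40 counts in controls and 4 and 8 in crizotinib livers.

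The coreceptors bind class II (Cd4) or class I (Cd8a, Cd8b1) molecules and bring Lck to the receptor. Cd4 (ENSMUSG00000023274, chromosome 6, 124864692 to 124888221) had 3.03, 1.04 and 3.94 CPM in control replicates 1, 2 and 3 and 0, 0.261 and 0.508 CPM in crizotinib replicates 1, 2 and 3. The groups were apart, with control replicate 2 the lowest control. The log2 fold change was -3.35 ± 1.08 (SE, edgeR adjusted p = 0.212). It was -4.34 without crizotinib replicate 3 and -2.78 without crizotinib replicate 1. Cd8b1 (ENSMUSG00000053044, chromosome 6, 71322788 to 71337494) had 16, 16 and 18 counts in the controls and 0 in each crizotinib library. Set against the floor of 3 counts in each library, its level was at least 5.55-fold lower, and its fitted fold change, which depends on the prior count, is no bound (edgeR adjusted p = 0.11). Cd8a, its partner in the CD8 heterodimer, had 0.687, 0.474 and 0.692 CPM in controls against 0.289, 0 and 0.143 CPM (edgeR adjusted p = 0.386). Its log2 fold change was -2.09 ± 1.04 (SE), -3.04 without crizotinib replicate 1 and -1.51 without crizotinib replicate 2.

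Transcripts of the receptor's own constant regions, from a list outside the 34, showed the same order. Trac, Trbc1 and Trbc2 together held 192, 95 and 174 counts in controls and 25, 14 and 35 counts in crizotinib livers, or 2.86 ± 1.40 against 0.433 ± 0.153 CPM (6.60-fold in the ratio of means). Among 28 further T-cell genes, 11 lay lower in every crizotinib library and 0 higher. Of the 21 tested, 15 had a fold change below 0, 0 passed in edgeR and 8, all below 0, had an unadjusted p under 0.05, with a median log2 fold change of -1.17. Fyb and Lcp2 are adaptors downstream of Zap70 that myeloid cells also express. Control and crizotinib means were 7.53 ± 2.35 against 2.05 ± 0.597 CPM for Fyb and 3.94 ± 0.894 against 1.23 ± 0.502 CPM for Lcp2. Trbc2 had 1.503 ± 1.07 against 0.299 ± 0.0619 CPM and Il2ra, the inducible alpha chain of the IL-2 receptor, 0.345 ± 0.0774 against 0.0257 ± 0.0446 CPM. Other genes of the list had values near the controls: Foxp3, the factor of regulatory T cells, and Bcl11b, needed for T-cell identity, had log2 fold changes of -0.07 ± 0.76 and 0.18 ± 0.61 (SE).

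Signalling genes split by size. Of the 5, 3 (Zap70, Lck and Skap1) were lower in every crizotinib library than in any control, Lck not without TMM factors. Zap70, the kinase that docks on phosphorylated CD3 and zeta chains (ENSMUSG00000026117, chromosome 1, 36761798 to 36782818), had 3.26, 1.76 and 3.51 CPM in the controls and 0.482, 0.521 and 1.17 CPM in the crizotinib livers. Crizotinib replicate 3 was the highest of its group, and the log2 fold change was -1.96 ± 0.52 (SE; edgeR adjusted p = 0.158). Lck, the kinase bound to Cd4 and Cd8, had 1.11, 1.06 and 1.53 CPM in controls against 0.791, 0.354 and 0.396 CPM, with the fitted log2 difference at -1.26 ± 0.52 (SE; edgeR adjusted p = 0.308). Skap1, an adaptor that links the receptor to integrins, had 0.930, 0.581 and 0.264 CPM in controls against 0.0772, 0 and 0.143 CPM, with 4, 0 and 9 counts behind the crizotinib values. Its fitted log2 difference was -2.95 ± 1.06 (SE, edgeR adjusted p = 0.248), -3.90 without crizotinib replicate 3 and -2.38 without crizotinib replicate 2. Lat, the membrane adaptor phosphorylated by Zap70, had 0.576, 0.183 and 0.807 CPM in controls against 0.463, 0.317 and 0.396 CPM, with the crizotinib values inside the control range. Txk, a Tec-family kinase, had 28, 0 and 9 counts in controls and 0, 0 and 8 in crizotinib livers and was not tested.

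Surface receptors of T cells did not follow the receptor complex: none of Cd2, Cd5, Cd28, Thy1 and Cd27 had groups that did not overlap. Cd28 gives the costimulatory signal when it binds Cd80 or Cd86. Cd28 (ENSMUSG00000026012, chromosome 1, 60716800 to 60773359, plus strand) had 28, 38 and 14 counts in the controls but 1065, 1788 and 24 counts in crizotinib replicates 1, 2 and 3. In CPM these were 0.620, 0.581 and 0.231 and 20.6, 33.3 and 0.381, so that crizotinib replicate 3 lay inside the control range. The log2 fold change was 5.24 ± 1.32 (SE; edgeR adjusted p = 0.148), and 5.81 ± 0.49 (SE; edgeR adjusted p = 0.00317) without crizotinib replicate 3 and 4.44 without crizotinib replicate 2. Per length, Cd28 reached 3.13 and 4.84 FPKM in crizotinib replicates 1 and 2, above every other member in the same library. The CD3 and zeta chains together held 16 and 9 counts there. No gene of the annotation overlaps Cd28.

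Several genes of the other lists had this distribution over the 6 libraries. Itga2, the CD49b integrin chain used as an NK marker and also made by epithelial cells and platelets, had 0.0886, 1.12 and 1.45 CPM in controls and 21.9, 45.4 and 1.93 CPM in crizotinib livers. Zbtb16, the factor of innate-like T cells, also known as a glucocorticoid-induced gene, had 1.95, 3.38 and 1.66 CPM in controls against 18.1, 18.1 and 1.28 CPM. Nfil3, a factor needed for NK cells and also expressed in liver cells, had 19.3, 12.97 and 17.7 CPM in controls against 100.3, 75.8 and 10.96 CPM. In each, crizotinib replicates 1 and 2 were high and crizotinib replicate 3 was near the controls. Fgb, the fibrinogen beta chain made by hepatocytes, had 28639, 24989 and 4477 CPM in crizotinib livers against 1954, 4871 and 3416 CPM, and the neutrophil gene S100a8 had 7.53, 3.18 and 0.317 against 0.532, 0.856 and 0.297 CPM. These 5 did not pass in edgeR (adjusted p of 0.156, 0.236, 0.247, 0.229 and 0.253). Gene counts do not show which part of Cd28 the reads cover, and neither the transcript nor the cells behind them were tested.

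**Figure D2:**
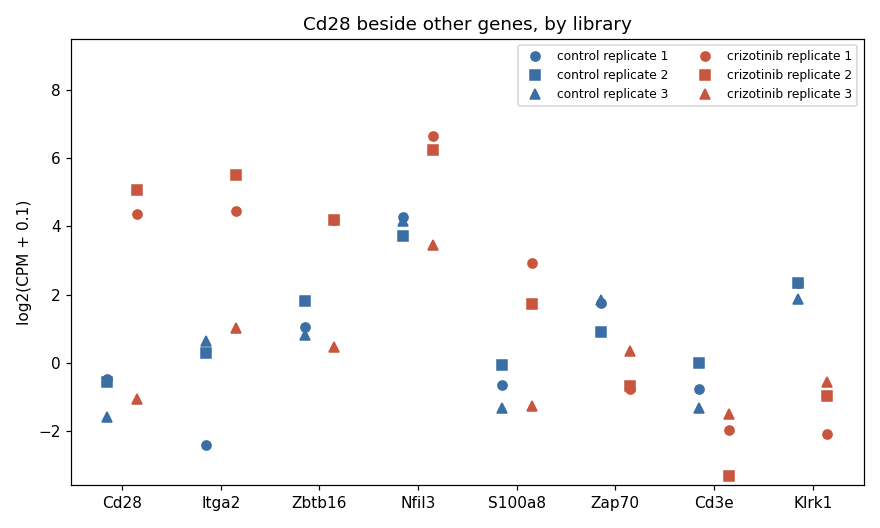
Level of Cd28 and 7 other genes, as log2(CPM + 0.1), in 3 control (blue, left of each tick) and 3 crizotinib (red, right) libraries, with 1 symbol per replicate. Cd28, Itga2, Zbtb16, Nfil3 and S100a8 are high in crizotinib replicates 1 and 2, where Zap70, Cd3e and Klrk1 are low.

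Among the remaining surface receptors, Thy1, a glycoprotein of mouse T cells that fibroblasts and neurons also carry, had 0.930, 1.38 and 1.89 CPM in controls and 2.84, 2.23 and 1.65 CPM in crizotinib livers. Its log2 fold change was 0.67 ± 0.43 (SE; edgeR adjusted p = 0.495). Under the library total without TMM factors its crizotinib values all lay above the controls, so its overlap depends on the scaling. Cd2, an adhesion receptor of T and NK cells, had 1.28, 0.826 and 1.24 CPM in controls against 1.43, 0.819 and 0.190 CPM, with crizotinib replicate 1 the highest of all and crizotinib replicates 2 and 3 below the lowest control, by little in replicate 2. Cd27, a TNF-family receptor shared with B cells, had 37, 29 and 26 counts in controls and 25, 0 and 0 in crizotinib livers. In CPM these were 0.819, 0.443 and 0.428 against 0.482, 0 and 0, so that crizotinib replicate 1 lay inside the control range. The log2 fold change was -1.81 ± 1.44 (SE; edgeR adjusted p = 0.582), and without crizotinib replicate 1 no count was left in the crizotinib group. Cd27 overlaps Vamp1 on the opposite strand, and reads of the pair cannot be told apart if strand was ignored in counting. Cd5, a damper of receptor signalling, had 6, 14 and 5 counts against 10, 0 and 0 and was not tested.

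NK receptors were lower in all 3 crizotinib livers, and Klrk1 had the smallest p of all members. All 4 (Klrb1c, Klrd1, Klrk1 and Ncr1) were below every control in every crizotinib library, Ncr1 not without TMM factors. Klrk1, or NKG2D, binds stress ligands on target cells and is carried by NK and by some T cells. Klrk1 (ENSMUSG00000030149, chromosome 6, 129610323 to 129623864) had 222, 325 and 214 counts in controls and 7, 22 and 36 counts in crizotinib livers. In CPM these were 4.92, 4.97 and 3.53 against 0.135, 0.410 and 0.571, a wide gap with a narrow control range under TMM. In the deposited FPKM the gap was also wide but the controls spread more, with 0.403, 0.779 and 0.433 against 0.0130, 0.0473 and 0.0834. The log2 fold change was -3.57 ± 0.56 (SE), or 11.9-fold lower (edgeR adjusted p = 0.0544). By DESeq2 its adjusted p was 3.6e-08.

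Ncr1, or NKp46, an activating receptor of NK and innate lymphoid cells, had 0.288, 0.459 and 1.005 CPM in controls and 0.135, 0.0745 and 0.174 CPM in crizotinib livers (log2 fold change -2.17 ± 0.74, SE; edgeR adjusted p = 0.229). Klrb1c, the NK1.1 antigen of some mouse strains, had 0.332, 0.550 and 0.643 CPM in controls against 0.0772, 0.149 and 0.174 CPM; it overlaps Gm44511 on the same strand, so its reads may be split. Klrd1, or CD94, which pairs with NKG2 chains to read class I molecules, had 23, 21 and 13 counts in controls and 0, 0 and 7 in crizotinib livers. Klrb1c and Klrd1 had log2 fold changes of -1.91 ± 0.66 and -3.08 ± 1.25 (SE; edgeR adjusted p = 0.236 and 0.3). The fold of Klrd1 rests on the 7 counts of crizotinib replicate 3, without which the crizotinib group had none, and that of Ncr1 was -1.53 without control replicate 3. The T-box factors that direct NK and effector T cells were too low to test. Tbx21 (T-bet) had 12, 35 and 13 counts against 6, 0 and 8, and Eomes 0, 6 and 10 against 14, 0 and 0.

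Of 26 further NK and innate lymphocyte genes in the table, 13 could be tested, and 9 of the 26 lay lower in every crizotinib library and 1 higher. The median log2 fold change was -0.31, 0 passed in edgeR, and at an unadjusted p under 0.05 there were 4 lower and 3 higher. Tyrobp, the DAP12 adaptor through which activating NK receptors signal and which macrophages also use, had 7.03 ± 0.973 against 1.27 ± 0.533 CPM (edgeR adjusted p = 0.0646). Ctsw, a cathepsin of killer lymphocytes, had 2.13, 0.872 and 1.499 CPM in controls and 0.232, 0 and 0.285 CPM in crizotinib livers. The 3 higher genes were Itga2, Zbtb16 and Nfil3, described above with Cd28.

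Cytotoxic granule genes were lower, and all 4 (Nkg7, Gzma, Gzmb and Prf1) lay below every control in every crizotinib library, Gzmb not without TMM factors. Gzma, a serine protease released onto target cells (ENSMUSG00000023132, chromosome 13, 113093825 to 113100981), had 0.687, 1.65 and 1.29 CPM in controls and 0.193, 0.242 and 0.254 CPM in crizotinib livers. The crizotinib values were within a narrow band, and the log2 fold change was -2.38 ± 0.56 (SE; edgeR adjusted p = 0.138). Nkg7, a granule membrane protein needed for degranulation, had 0.842, 0.642 and 1.17 CPM in controls against 0.309, 0.0745 and 0.0634 CPM. Its fitted log2 difference was -2.57 ± 0.77 (SE, edgeR adjusted p = 0.19), -3.64 without crizotinib replicate 1 and -2.22 without crizotinib replicate 3. Gzmb, the protease that activates caspases in target cells, had 0.775, 3.06 and 0.873 CPM in controls against 0.753, 0.559 and 0.571 CPM. Here control replicate 2 stood alone at the top and the other controls were close to the crizotinib values, and the log2 fold change went from -1.32 ± 0.63 (SE; edgeR adjusted p = 0.367) to -0.42 without control replicate 2. Prf1, perforin, which opens the target membrane, had 12, 9 and 19 counts in controls and 0, 0 and 8 in crizotinib livers and was not tested.

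**Figure D3:**
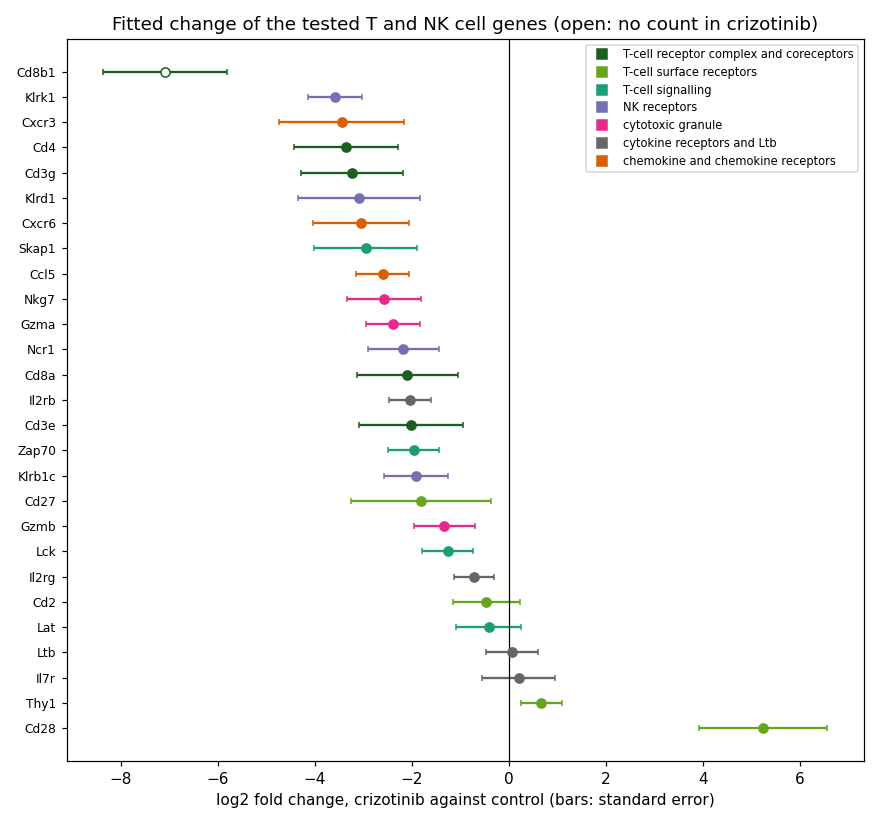
Fitted log2 fold change of crizotinib against control for the 27 tested members, with bars of 1 standard error, coloured by role and ordered by size; the open point is Cd8b1, which had no count in crizotinib and whose size depends on the prior count. The 23 genes left of 0 run from Cd8b1 and Klrk1 to Lat, and Cd28 stands alone at the right.

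Of the 3 cytokine receptors and Ltb, only Il2rb lay lower in every crizotinib library than in any control. Il2rb, the beta chain of the receptors for IL-2 and IL-15 that NK and memory CD8 T cells depend on (ENSMUSG00000068227, chromosome 15, 78479256 to 78495271), had 2.46, 2.22 and 1.89 CPM in controls and 0.405, 0.466 and 0.730 CPM in crizotinib livers. The groups were far apart relative to their spread, and the fitted log2 difference was -2.03 ± 0.44 (SE; edgeR adjusted p = 0.115). Il2rg, the common gamma chain, which myeloid and B cells also express, had 2.83, 5.72 and 3.92 CPM in controls against 3.13, 2.87 and 1.63 CPM, and its groups overlapped (log2 fold change -0.71 ± 0.41, SE; edgeR adjusted p = 0.445). Il7r, the receptor of naive and memory T cells and of innate lymphoid cells, had 0.487, 0.229 and 0.231 CPM in controls against 0.695, 0.205 and 0.190 CPM. Ltb, lymphotoxin beta, a membrane cytokine of T, B and innate lymphoid cells, had 2.06, 3.04 and 2.65 CPM in controls against 4.55, 2.63 and 1.02 CPM. Both had crizotinib replicate 1 highest of all 6 libraries, and their log2 fold changes, 0.21 ± 0.76 and 0.08 ± 0.53 (SE), were within 1 standard error of 0; without crizotinib replicate 1 they were -0.66 and -0.51.

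The chemokine Ccl5 and the receptors Cxcr6 and Cxcr3 were lower in every crizotinib library than in any control. Ccl5, or RANTES, is stored and released by memory T and NK cells. It had the highest control level per length of the 34 (ENSMUSG00000035042, chromosome 11, 83525778 to 83530518). Its levels were 3.34, 1.21 and 4.09 CPM in controls and 0.425, 0.503 and 0.492 CPM in crizotinib livers, with control replicate 2 the lowest control. The log2 fold change was -2.60 ± 0.54 (SE; edgeR adjusted p = 0.106). Cxcr6, which holds NKT and resident CD8 T cells in the sinusoids, had 45, 28 and 38 counts in controls and 0, 6 and 8 in crizotinib livers (log2 fold change -3.04 ± 0.99, SE; edgeR adjusted p = 0.215); it overlaps Fyco1 on the opposite strand. Cxcr3, the receptor for interferon-induced chemokines, had 34, 38 and 22 counts in controls and 8, 0 and 0 in crizotinib livers (log2 fold change -3.45 ± 1.29, SE; edgeR adjusted p = 0.269). The size of that fold rests on the 8 counts of crizotinib replicate 1, without which the crizotinib group had none.

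Ligands and cytokines that act on these genes were mixed. Of 22 with a row, 18 were tested, 12 below and 6 above 0 (median -0.51 on the log2 scale); 0 passed in edgeR, and at an unadjusted p under 0.05 there were 3 lower and 2 higher. Cd86, a Cd28 ligand of antigen-presenting cells, had 3.22 ± 0.296 against 0.517 ± 0.423 CPM, while Cd80, the other ligand, had 0.394 ± 0.0760 against 0.417 ± 0.438 CPM. Cd48, which binds Cd2, had 3.09 ± 1.25 against 0.790 ± 0.166 CPM, and Raet1e, a stress ligand of Klrk1, had 0.769 ± 0.343 against 1.97 ± 0.617 CPM. Cxcl16, the ligand of Cxcr6, had 4.39, 4.36 and 4.89 CPM in controls against 4.63, 2.16 and 1.78 CPM. Il15, which sustains NK cells, had 2.37, 1.24 and 1.29 CPM in controls but 0.521, 0 and 4.22 CPM in crizotinib replicates 1, 2 and 3, low in replicates 1 and 2 and high in replicate 3. The Cxcr3 ligand Cxcl9 followed the same order within crizotinib, with 1.12, 0.670 and 14.2 CPM against 6.80, 36.8 and 9.33 CPM in controls. Cxcl11, also a Cxcr3 ligand, had 0.946, 1.23 and 15.1 CPM in crizotinib livers against 12.2, 3.55 and 3.28 CPM. The Cxcr3 ligand Cxcl10 differed, with 8.36, 1.45 and 16.6 CPM in crizotinib livers against 1.86, 3.79 and 3.13 CPM. Its crizotinib replicates 1 and 3 were above every control.

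Because many members had low counts, the counts were also summed by class, as a description with no test, since the genes were chosen with earlier results of these data known. The 6 NK members (4 receptors and 2 T-box factors) summed to 285, 453 and 350 counts in controls and 38, 34 and 73 in crizotinib livers, or 6.34 ± 0.580 against 0.841 ± 0.279 CPM, 7.53-fold lower in the ratio of means and 3.97-fold lower without Klrk1. The 4 granule members summed to 2.57, 5.49 and 3.64 CPM in controls against 1.25, 0.875 and 1.02 CPM, 3.72-fold lower. The 7 members shared among lymphocytes (Il7r, Il2rb, Il2rg, Ltb, Ccl5, Cxcr6 and Cxcr3) summed to 12.9, 13.4 and 13.8 CPM in controls against 9.36, 6.78 and 4.19 CPM, 1.98-fold lower. In each of these 3 classes the groups did not overlap under TMM. Without TMM factors the shared class did overlap. It held 584 of 67947970 counts in control replicate 1 and 485 of 51123361 in crizotinib replicate 1, the larger share. The NK and granule sums stayed apart without the factors.

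The sum over the 17 T-cell members was decided by Cd28. With it, controls had 16.9, 10.7 and 16.8 CPM and crizotinib livers 27.9, 37.97 and 5.55 CPM, so that crizotinib replicates 1 and 2 were above and crizotinib replicate 3 below the controls. Without it, a split made after its values were seen, the sums were 16.3, 10.1 and 16.6 CPM in controls against 7.35, 4.67 and 5.17 CPM, 2.50-fold lower with no overlap. The 7 receptor and coreceptor genes alone were 7.99-fold lower and the 5 signalling genes 3.12-fold lower. Over all 34 members the sums were 38.7, 36.50 and 39.99 CPM in controls against 39.3, 46.3 and 11.9 CPM with Cd28, and 38.1, 35.9 and 39.8 CPM in controls against 18.7, 12.96 and 11.53 CPM without it.

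**Figure D4:**
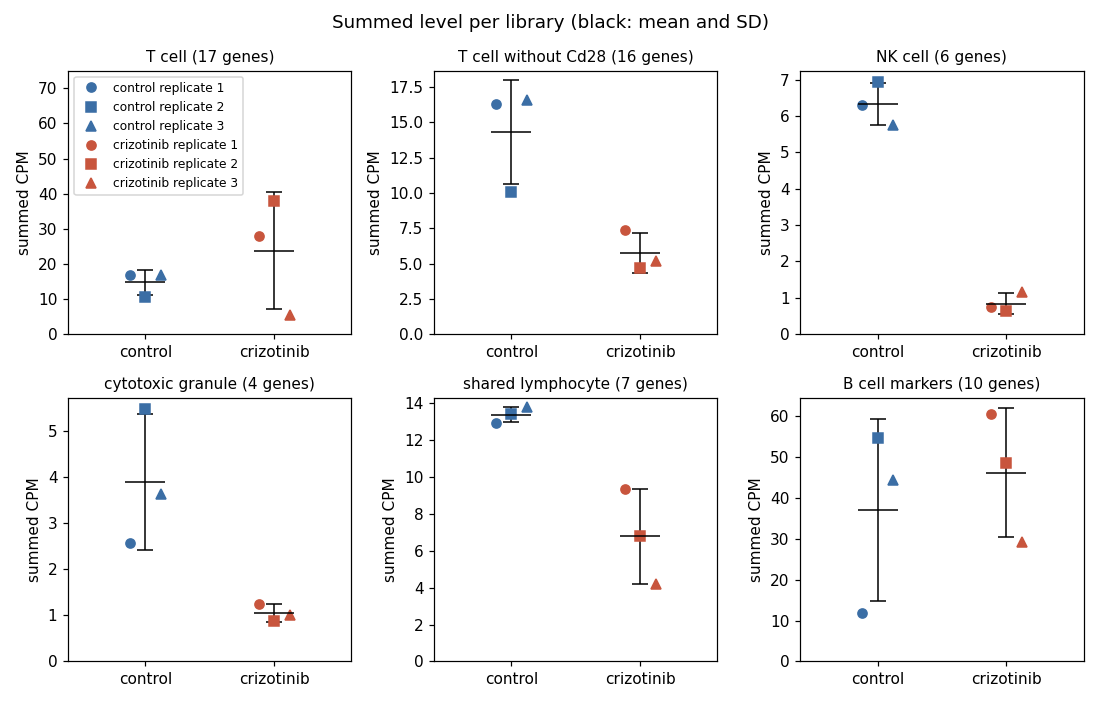
Summed CPM per library for the 4 classes of members, the T-cell class with and without Cd28, and 10 B cell markers; points are libraries, black marks the mean and SD of 3, and each axis starts at 0. With the TMM factors used here, the NK, granule, shared and Cd28-free T-cell sums are lower in all 3 crizotinib libraries, and the B cell sums overlap. The shared sums also overlap without these factors.

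Markers of other cells were read beside these values. B cell markers did not stand lower: all 10 were tested, 9 had a fold change above 0 (median log2 fold change 0.37), and their summed level was 11.9, 54.6 and 44.4 CPM in controls and 60.6, 48.6 and 29.3 CPM in crizotinib livers. Under TMM, control replicate 1 was low in B cell markers but not in T and NK cell genes. By library total alone it was the lowest control for both. The members without Cd28 held 1720 of 67947970 counts there. They held 2349 of 51904985 in control replicate 2 and 2413 of 61110883 in control replicate 3. Of 15 general leukocyte genes 8 lay below every control and 0 above, with a median of -0.66, and 0 passed in edgeR; the lowest p were those of Itgal, Rac2, Cd53 and Itgb2, and Ptprc (CD45), carried by all leukocytes, had 10.9, 15.2 and 13.1 CPM in controls against 12.2, 8.38 and 6.26 CPM. Of 15 genes listed as Kupffer cell markers 13 lay below every control and 7 fell by edgeR's test (C1qb, C1qc, Clec4f, Folr2, Cd5l, Cd68 and Csf1r), with a median of -2.57. The 15 include general macrophage genes such as Cd68 and Csf1r. They also include Xcr1, a dendritic cell gene, which is among the 13. Clec4f fell from 111 ± 24.3 to 10.1 ± 5.03 CPM. The summed level of the 15 genes was 502 to 655 CPM in controls and 100.4 to 125 CPM in crizotinib livers.

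Markers of monocytes and dendritic cells had a median of -1.42 over 11 tested, with 7 of 12 below every control; sinusoidal endothelial and stellate cell markers had medians of -1.11 and -1.57 over 8 tested each. Summed levels were 11.2 to 22.3 CPM in controls and 10.6 to 21.8 CPM in crizotinib livers for the first, 72.46 to 200.1 CPM in controls and 46.7 to 76.1 CPM in crizotinib livers for the second and 203 to 379.7 CPM in controls and 113 to 172 CPM in crizotinib livers for the last of these. Neutrophil markers (5.52 to 10.3 CPM in controls and 8.47 to 37.1 CPM in crizotinib livers) had a median of 1.86 over 10 tested, largely in crizotinib replicates 1 and 2, plasma cell markers 0.22 over 5, mast cell markers -0.11 over 3 and hepatocyte markers -0.70 over 8; 0 genes of these lists passed in edgeR. In the list for other tissue, Prss2 (pancreas), Ptcra and Rag1 (thymus) had at most 4 counts in any library, while Cela1, also made in liver, had 22.3, 19.3 and 41.4 CPM in controls against 1.85, 4.86 and 6.53 CPM. Dntt, a gene of lymphoid precursors, had 21 to 177 counts per library. The part of these cells in the T and NK cell values was not tested. The deviations by library, without Cd28, had medians of 0.18, -0.17 and 0.03 for the members in control replicates 1, 2 and 3 and lay between -1.998 and -1.37 in crizotinib libraries.

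**Figure D5:**
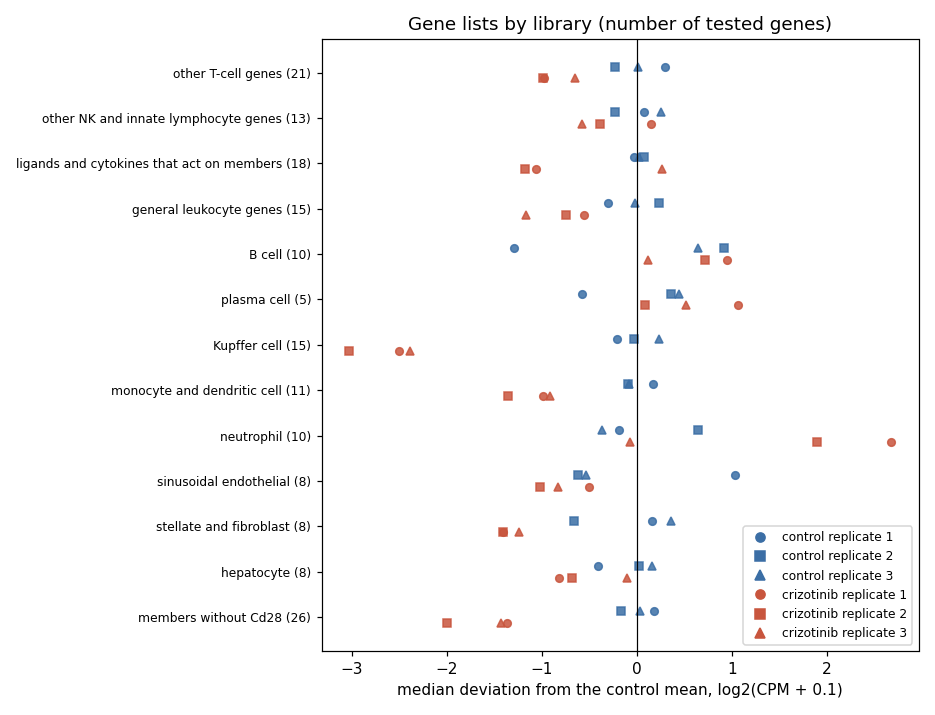
Median deviation of each gene list from its control mean, in log2(CPM + 0.1), per library, with the number of tested genes in parentheses, for lists of at least 5; blue points are control and red points crizotinib replicates. The members without Cd28 lie left of the controls in all 3 crizotinib libraries. So do the other T-cell, general leukocyte, Kupffer cell, monocyte and dendritic cell, and stellate cell lists. The B cell markers and the remaining lists do not.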

How the data were processed

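Liver RNA of 6 mice was measured, 3 per group, each library 1 replicate. RNA came from a Qiagen RNeasy kit and libraries from a SMARTer mRNA kit, per the labels' protocols. Per the file headers, the authors deposited a read count and an FPKM value per gene and library; the counts were whole and not normalized. No source used here gives the aligner, counter, annotation or use of strand. Start and end of 28 of the 34 members equalled GENCODE M21 on GRCm38.

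The labels name separate samples and no batches, so p-values measure the spread between these samples. Counts were filtered with filterByExpr (minimum count 10, total 15), scaled by TMM and tested two-sided with the quasi-likelihood test of edgeR 4.0.16 (R 4.3.3). P-values were adjusted over 16492 genes (Benjamini-Hochberg) with a threshold of 0.05. CPM values divide by the TMM-scaled total of the genes that passed the filter, and deviations use log2(CPM + 0.1). A ± after CPM is the SD over n = 3.

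Members, lists, role groups and alternatives were chosen with earlier results of these data known. The rule gave values in every library for up to 3 members with the smallest p in each role group and for members fitted against the majority, and named up to 4 genes with the smallest p of each other list; 1 such gene is not reported here. Other genes given with values (the remaining members, Foxp3, Bcl11b, Zbtb16, Nfil3, Cd80, Cxcl16, Il15, Cxcl9, Cxcl10, Cxcl11, Ptprc, the Trac and Trbc1 sum, and tissue genes) were named after their values were seen. Alternatives were DESeq2 1.42.0, its size factors, no filter, a replicate block, libraries left out, mitochondrial genes removed, voom with quality weights in limma 3.58.1, and limma on log2(FPKM + 1).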

Additional observations from a re-analysis of the deposited data

How the results depend on the processing

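The count of 56 genes called was 1105 by DESeq2, 3217 by limma voom with quality weights, 1718 without control replicate 1 and crizotinib replicate 3, and 0 to 1504 with 1 library left out. The count of 0 members was 11, 18, 5 and 0 to 7 under the same settings. With DESeq2 size factors, no filter, mitochondrial genes removed or limma on log2(FPKM + 1), 0 members and 48 to 61 genes were called. Same-numbered libraries did not deviate together (correlations of -0.14, 0.122 and -0.0828, and 2 of 6 libraries closest to their own number). With 3 libraries per group this cannot exclude a pairing by number. With the replicate block in edgeR 0 genes and 0 members were called, and 2068 genes had an unadjusted p under 0.05. Of single members' values 330 kept direction and side of the threshold, 41 became called and 7 turned sign. Sign turned for Ltb at -0.15 with the replicate block. With 1 library left out, or with control replicate 1 and crizotinib replicate 3 both left out, Ltb ranged over -0.51 to 0.45, Il7r over -0.66 to 0.93, Lat over -0.85 to 0.054 and Cd2 over -1.14 to 0.10.

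Summed log2 ratios were 0.69 for T-cell members and -1.32 without Cd28, -2.91 for NK members and -1.99 without Klrk1, -1.90 for granule members and -2.47 without Gzmb. For all members the ratio was -0.24, and -1.40 without Cd28, 0.16 without control replicate 1 and crizotinib replicate 3, and -0.59 to 0.15 with 1 library left out. Low counts limit single members, and with 3 animals per group a missed threshold shows no equality.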
